A study of Mus musculus with 23 samples.

Results

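The genes described here are 9 Notch target and feedback genes, Hes1, Hes5, Hes6, Hey1, Heyl, Dtx1, Dtx3l, Nrarp and Rbpj. They were chosen by name, all 9 were found among the 24475 genes of the table, and each has 1 row. They were followed across normal thymus and T-cell acute lymphoblastic leukemia (T-ALL), and against the Notch1 and Notch3 transcripts from tumor to tumor.

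RNA sequencing covered 23 mouse samples, each 1 library. The thymus group was normal thymus of C57BL/6 mice (n = 6, controls 1 to 6). WT T-ALL was the spleen of BALB/c Rag2-/-Il2rg-/- hosts whose tumor arose from a transplanted wild-type donor thymus (n = 14), and Notch3 KO T-ALL was the spleen of the same kind of host after transplantation of a Notch3 knockout thymus (n = 3). By the study's methods the donors were newborns, the wild-type donors were of the B6.Ly5.1 line (CD45.1), and the Notch3 knockout was made by placing a β-galactosidase gene within its first coding exon. Both T-ALL groups therefore share the absence of Rag2 and Il2rg in the host, the host strain and the tissue, and all 3 differ from thymus. The labels give no age for any group and do not say that samples of a group came from separate animals, so p-values measure the spread between these samples. The tissue was unfractionated spleen, so host blood, myeloid and stromal cells contribute to both T-ALL groups.

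Notch receptors are cut when a ligand binds, or without ligand when mutated, and the released intracellular part enters the nucleus. There it joins Rbpj, the DNA-binding protein of the pathway, and turns a repressor complex into an activator. Among the classic targets are the Hes and Hey genes, which encode basic helix-loop-helix repressors, and Nrarp, a small ankyrin-repeat protein that acts back on the complex of Rbpj and the Notch intracellular domain and limits it. Dtx1 encodes Deltex, a ubiquitin ligase that binds Notch and is itself a target in T cells. In the T lineage Notch1 drives commitment of early progenitors, and its activation is the commonest lesion of T-ALL.

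The 4 stretches of 30 bases shown here lie just before a RefSeq start of Hes5 and of Rbpj, and they are printed because they hold TGGGAA, the core that Rbpj recognizes, or its reverse complement TTCCCA. They were read from RefSeq promoter windows on GRCm38.p6, 250 bases before to 50 bases after each start, and only bases before the start are printed. The capitals mark the core, and every sequence is on the plus strand.
Hes5, chr4:154960685-154960714: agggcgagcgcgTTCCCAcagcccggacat
Hes5, chr4:154960829-154960858: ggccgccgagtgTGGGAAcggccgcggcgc
Rbpj, chr5:53590185-53590214: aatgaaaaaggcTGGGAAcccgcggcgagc
Rbpj, chr5:53590269-53590298: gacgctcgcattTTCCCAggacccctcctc
The matches begin 226 and 82 bases before the start of Hes5, and 149 and 65 bases before the first of the 2 Rbpj starts in the table. Both of these starts lie inside the GENCODE span of Rbpj given further on, so they are internal starts, and the 5′ end of that span was not searched. No match was found in the windows of Hes6, Nrarp, Dtx1 and Dtx3l, and the windows of Hes1, Hey1 and Heyl were not used here. On either strand the core occurs in 25.6% of all 32851 windows, so a match describes these letters and is no evidence of binding, which was not examined.

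All values are log2(RPKM + 1), after scaling that brings the 75th percentile of RPKM to 10 in every library. Notch3, the gene altered in 1 group, was examined first. Thymus libraries lay between 2.62 and 4.29, WT T-ALL libraries between 3.17 and 5.78 with a median of 4.85, and the level was 3.22, 2.59 and 3.74 in Notch3 KO T-ALL 1, 2 and 3. It was therefore not at 0 in the knockout tumors, and only Notch3 KO T-ALL 2 lay below all WT T-ALL libraries (difference -1.56, SE 0.41, limma adjusted p = 0.101). For Notch1 the ranges were 4.40 to 5.84 for thymus, 5.75 to 7.44 for WT T-ALL, and 6.52 to 7.20 for the knockout tumors.

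Cell type markers were summed to describe the labelled tissues. Sums of 8 thymic epithelium markers overlapped, with scaled RPKM of 7.96 to 10.5 for thymus, 2.55 to 9.92 for WT T-ALL, and 3.54 to 8.86 for the knockout tumors. Summed over 10 T-lineage markers, scaled RPKM reached 4764 to 6502 for thymus, 1137 to 3031 for WT T-ALL, and 1581 to 2342 for the knockout tumors. The 9 erythroid markers measured summed to 24.6 to 393, 758 to 52043 and 31518 to 103240, and the 9 mural and stromal markers to 1.69 to 2.89, 8.57 to 193 and 23.9 to 85.4. The libraries also split into 2 sets that the labels do not name, read from genes that do not follow the groups: 40 genes were higher in every set A library of thymus and WT T-ALL than in any set B library. Of the 35 of these in the annotation, 77.1% overlap a gene on the opposite strand, against 36.9% of all genes. Set A holds thymus 5 and 6, WT T-ALL 3, 4, 5 and 7 and all Notch3 KO libraries, and set B the other 14 libraries, and values within a set are given beside the main differences.

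**Figure D1:**
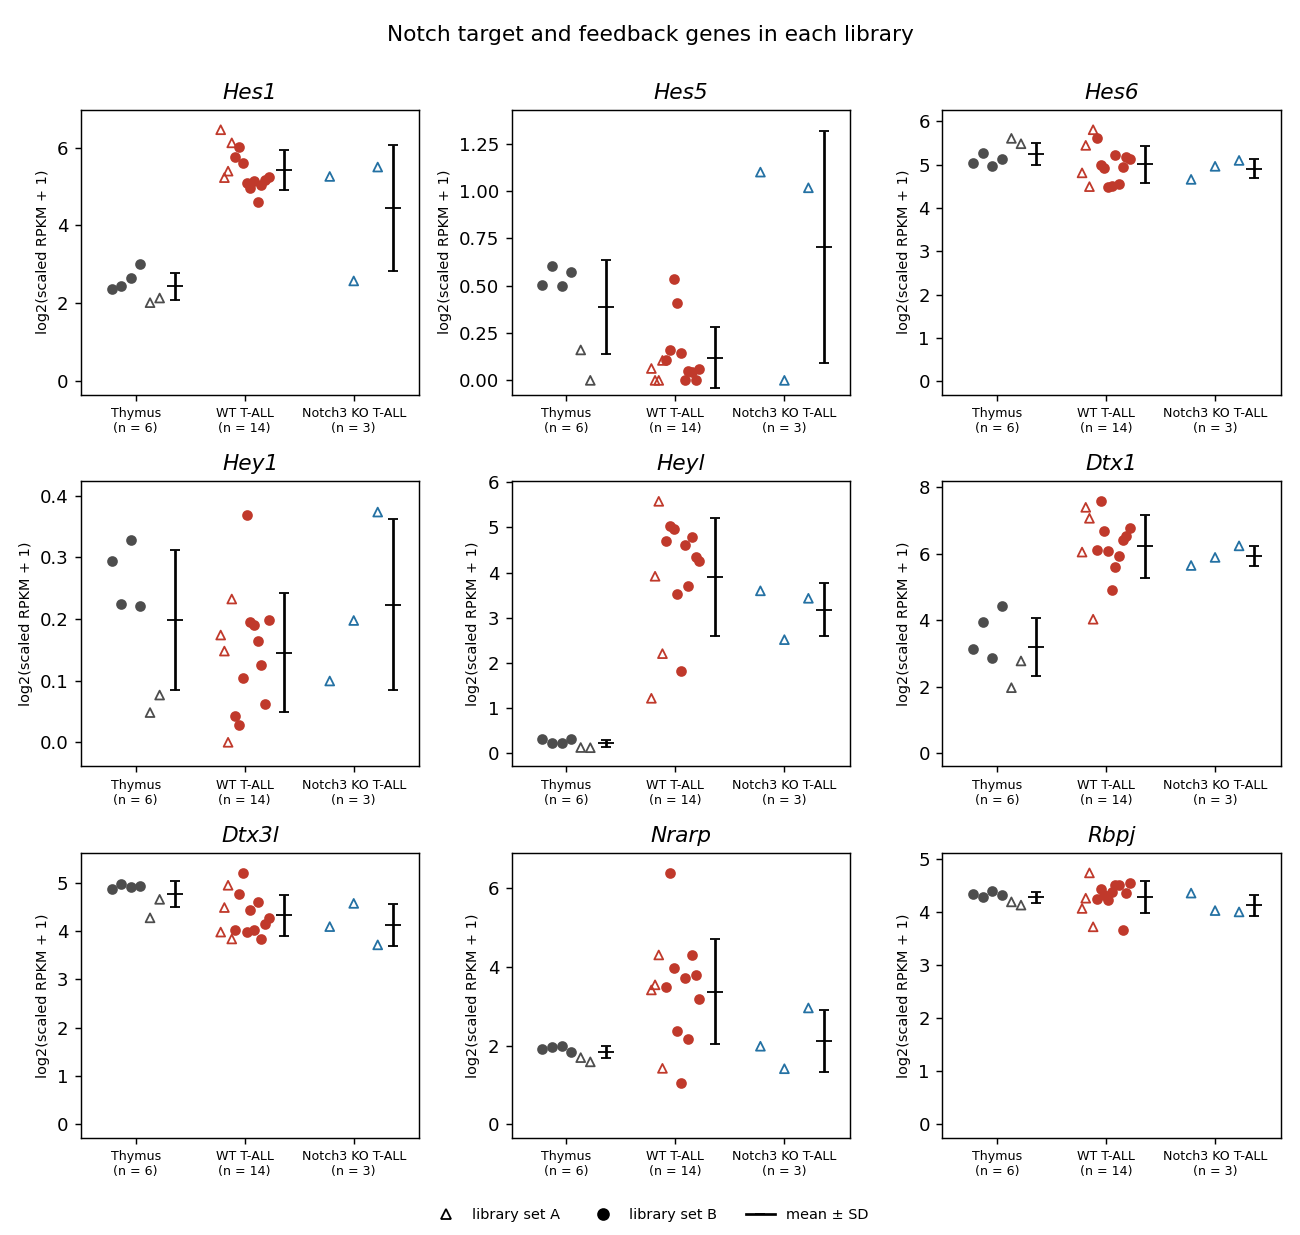
Each panel plots log2(scaled RPKM + 1) of 1 gene (vertical axis) by group (horizontal axis), with 1 point per library, open triangles for set A, filled circles for set B, and the mean ± SD at the right of each group; the vertical scales differ between panels. Hes1 and Heyl lie higher in all 14 WT T-ALL libraries than in any thymus library, Rbpj lies near 4.3 in thymus and WT T-ALL, and Hes1 of Notch3 KO T-ALL 2 sits among the thymus values at 2.58.

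The first comparison asks how the target genes of leukemic spleen differ from those of normal thymus. Heyl, Dtx1, Hes1 and Nrarp were higher in WT T-ALL and Dtx3l was lower, while Hes6 and Rbpj did not pass the test. That is 5 of the 7 genes that passed the filter on low values, against 51.6% of all 11919 genes tested. By direction, 4 were higher (29.3% of all genes) and 1 was lower (22.3%). The median difference of the 7 was 1.53, and 0.08 over all genes tested. Hes5 and Hey1 did not pass the filter, which asked for 3 or more libraries with a scaled RPKM of 1 or above, and Heyl passed it only through the T-ALL libraries.

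Hes1 (chr16:30064384-30067796, plus strand) encodes the repressor that is the best known Notch target of thymocytes and keeps early progenitors in the T lineage. Thymus 1 to 6 gave 2.36, 2.44, 2.65, 3.00, 2.02 and 2.14, and WT T-ALL ran from 4.61 to 6.46 with a median of 5.23. The groups did not overlap, and all 14 tumors lay above every thymus library. The share of all genes that separate this fully is not given here, so this separation, and that of Heyl below, only describes the libraries. The mean rose from 2.43 ± 0.36 (SD, n = 6) to 5.42 ± 0.51 (n = 14), a difference of 2.98 (SE 0.31, limma adjusted p = 8.78e-08). The two-sided exact permutation test over 38760 splits gave p = 2.58e-05, the smallest it can give. Within set A the difference was 3.72 and within set B 2.65.

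Heyl (chr4:123233556-123249875, plus strand), a Hey family repressor best known from the smooth muscle cells and pericytes of vessels, was nearly absent from thymus. The 6 thymus libraries gave 0.30, 0.21, 0.21, 0.29, 0.11 and 0.11, which correspond to 31, 17, 19, 28, 5 and 3 reads recovered from the steps of the values. In WT T-ALL it ran from 1.21 in tumor 3 to 5.58 in tumor 5, with a median of 4.29, and no tumor overlapped thymus. The difference was 3.70 (SE 0.49, limma adjusted p = 2.31e-06), the exact test gave p = 2.58e-05, and since thymus is so low its size depends on the offset of 1. With an offset of 0.01 it was 6.44. Within set B the difference was 3.92 (adjusted p = 1.36e-05), and within set A, with 2 thymus libraries, 3.11, where the call was lost (adjusted p = 0.0638). Tumors 3, 7 and 110 stood low at 1.21, 2.20 and 1.82, and the other 11 lay at 3.52 or above.

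Like Heyl, the summed mural and stromal markers were higher in both T-ALL groups than in thymus. Of these 9 markers, however, 7 had a mean scaled RPKM under 1 in WT T-ALL and 8 in thymus. With their score as a covariate the difference in Heyl was 1.91 (SE 0.90, adjusted p = 0.165) and that in Nrarp 0.31 (SE 0.99, adjusted p = 0.871). Hes1 and Dtx1 were called, with differences of 2.76 and 2.88. With an erythroid score instead, Heyl differed by 3.06 (adjusted p = 0.0564) and Nrarp by 1.58 (adjusted p = 0.367). With an endothelial score Heyl differed by 4.52 and Nrarp by 2.65 (adjusted p = 0.000372 and 0.0208), and with a T-lineage score by 4.16 and 2.21 (adjusted p = 2.33e-07 and 5e-05). The erythroid and stromal scores left 13.0% and 13.1% of all genes called, against 51.6% without a score. Neither marker sum overlapped between thymus and WT T-ALL, so a fit with either score cannot well separate the score from the group. Without a score the SE was 0.49 for Heyl and 0.50 for Nrarp. Over the 14 tumors the log2 stromal sum and Heyl had r = 0.460 (permutation p = 0.0981) and rho = 0.653 (permutation p = 0.0141). The part of stromal cells in the difference was not tested. In bulk tissue, fewer cells of a type and less RNA per cell cannot be told apart, and tissue, strain and disease change together between these groups.

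Dtx1 (chr5:120680202-120711927, minus strand) encodes the Notch-binding ubiquitin ligase Deltex. Thymus gave 3.14, 3.95, 2.87, 4.42, 1.97 and 2.77, and controls 2 and 4, the highest, were also the highest of the 6 for Notch1 and Notch3. WT T-ALL ran from 4.03 to 7.58 with a median of 6.26, and only tumor 7, at 4.03, overlapped thymus. The difference was 3.04 (SE 0.40, limma adjusted p = 2.59e-06, exact p = 5.16e-05 by permutation), 3.77 within set A and 2.66 within set B.

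Nrarp (chr2:25180758-25183339, plus strand), the feedback inhibitor, was the most spread of the genes that rose. Thymus lay within 1.59 to 1.98, while WT T-ALL ran from 1.06 to 6.39 with a median of 3.52. Of the 14 tumors, 12 lay above every thymus library and tumors 7 and 110, at 1.42 and 1.06, lay below all of them. Mitochondrial genes held 45.9% of the summed RPKM of tumor 7, against 10.3% to 20.9% in the other 13 tumors, and without tumor 7 the differences from thymus were 1.68 for Nrarp, 3.21 for Dtx1, 3.83 for Heyl and 2.93 for Hes1, all called. The mean of Nrarp rose from 1.83 ± 0.16 to 3.37 ± 1.34, a difference of 1.53 (SE 0.50, limma adjusted p = 0.0144, exact permutation p = 0.0116). The difference was as large within each set, 1.53 and 1.52, but with fewer libraries the adjusted p was 0.157 and 0.0717.

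Dtx3l (chr16:35926511-35939151, minus strand) encodes a ubiquitin ligase of the Deltex family that pairs with Parp9 and is induced by interferon. It was 4.77 ± 0.27 in thymus and 4.32 ± 0.43 in WT T-ALL, and 7 of 14 tumors lay below all thymus libraries and 1, tumor 48 at 5.20, above them. The difference of -0.45 (SE 0.19) passed narrowly, with a limma adjusted p of 0.0479 and an exact permutation p of 0.0321. It was -0.60 within set B and -0.15 within set A, and with an endothelial marker score as a covariate it turned to 0.22 (adjusted p = 0.565). Over all 38 alternatives the adjusted p ran from 0.0144 to 0.780, and the call was lost on leaving out any 1 of 14 libraries, namely thymus 1, 2, 3, 4 or 6, WT T-ALL 3, 7, 14, 108, 111, 126, 128 or 202, or Notch3 KO T-ALL 1.

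Hes6 (chr1:91411483-91414038, minus strand), a Hes relative that opposes Hes1 rather than acting as a plain repressor, was among the more abundant of the 9 in both tissues. It was 5.25 ± 0.25 in thymus and 5.01 ± 0.42 in WT T-ALL, where tumors ran from 4.49 to 5.81, with a difference of -0.24 (SE 0.18, limma adjusted p = 0.254). Rbpj (chr5:53466152-53657362, plus strand) was 4.28 ± 0.10 and 4.29 ± 0.30, a difference of 0.01 (SE 0.13, limma adjusted p = 0.962). Tumors 126 and 7, at 3.67 and 3.73, and tumor 5, at 4.75, made up the ends of its range. The mouse genome holds pseudogenes of Rbpj, so reads shared with them could affect its value.

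Hes5 (chr4:154960923-154962371, plus strand), which together with Hes1 maintains neural progenitors, and Hey1 (chr3:8663359-8667256, minus strand), a repressor of heart and vessel development, were hardly expressed. Their values came out as whole reads in 23 of 23 libraries, within 0.05 of a read. Hes5 had 16, 16, 14, 17, 2 and 0 reads in thymus, and among the 14 WT T-ALL libraries 28 in tumor 48, 9 in tumor 108, 7 in tumor 36 and 3 or fewer in each of the others. A count of 0 allows up to 3 reads, and 1 read is worth most in the shallowest libraries, so a low value in thymus 5 and 6 is not evidence of absence. On the log2 scale the difference between WT T-ALL and thymus was -0.27 (exact permutation p = 0.00712, unadjusted), -0.39 within set B and -0.04 within set A. Hey1 had 15, 9, 15, 10, 1 and 1 reads in thymus and 0 to 14 among the tumors, and the groups differed by -0.05 (exact permutation p = 0.292). Each exact p is 1 of 27 over these genes and comparisons and is unadjusted.

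**Figure D2:**
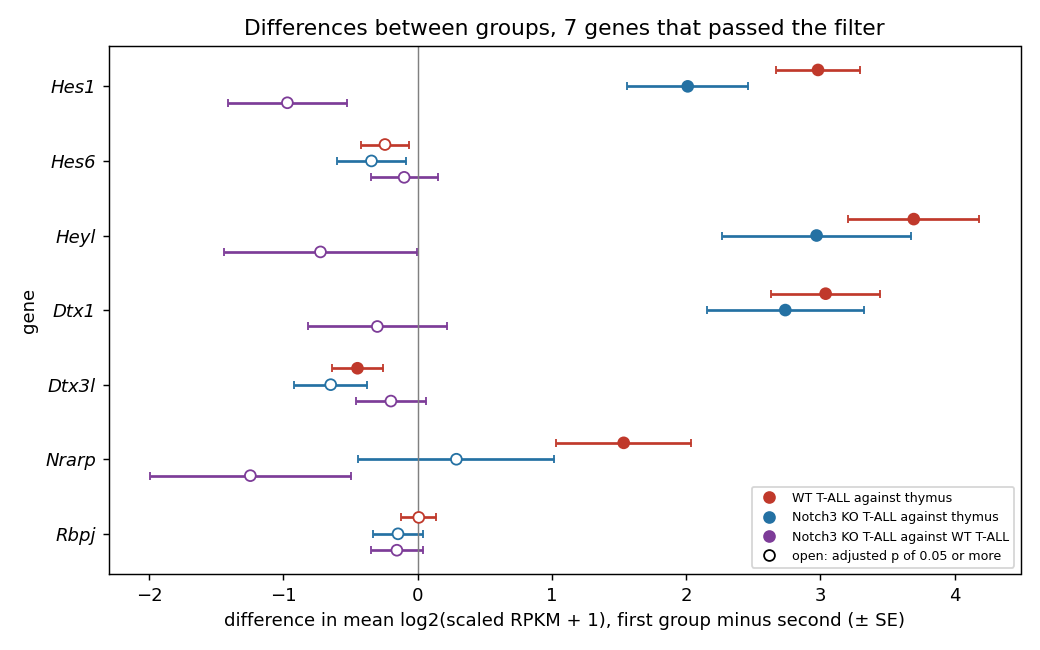
Points give the difference in mean log2(scaled RPKM + 1), first group minus second (horizontal axis), with its SE, for the 7 genes that passed the filter (vertical axis) in 3 comparisons; filled points have a limma adjusted p under 0.05. Hes1, Heyl and Dtx1 lie 2.01 to 3.70 above thymus in both T-ALL groups, and all points of Notch3 KO against WT T-ALL are open.

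The order of levels, which RPKM allows to be compared between genes, differed between the groups. In thymus Hes6 (5.25) stood first, followed by Dtx3l (4.77) and Rbpj (4.28), with Dtx1, Hes1 and Nrarp at 3.19, 2.43 and 1.83. In WT T-ALL the order was Dtx1 (6.23), Hes1 (5.42), Hes6 (5.01), Dtx3l (4.32), Rbpj (4.29), Heyl (3.90) and Nrarp (3.37), and of the neighbours in that order only Hes6 and Dtx3l lay apart by more than either SD. In thymus Dtx1 and Hes1 lay closer than the SD of Dtx1 (0.88) but not that of Hes1 (0.36), and Hes5, Heyl and Hey1 came last, at 0.39, 0.21 and 0.20. In Notch3 KO T-ALL Dtx1 again stood first, at 5.93.

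Other genes of the pathway were read from lists. The highest scaled RPKM of Hes2, Hes3, Hes7, Hey2 and Helt in any library was 0.0815, in Hes7. The counts that follow stand against 29.3% higher and 22.3% lower among all genes, and nothing particular to a list is read from them. Of 8 Rbpj coactivators, all tested, 2 were higher and 4 lower in WT T-ALL, with a median difference of -0.52. The Mastermind genes moved in different directions: Maml2 changed by -1.61 and Maml1 by -0.85, whereas Maml3 rose by 0.76 from a low level (limma adjusted p = 1e-06, 9.5e-06 and 0.00499). Of 16 corepressors of Rbpj and Hes proteins, 1 was higher and 7 lower, and the Groucho genes Tle4 and Tle2, which Hes proteins recruit, changed by -2.06 and -1.68. Of 11 other Notch targets of the T lineage, 4 were higher and 3 lower. Among the higher were Myc (1.87) and the receptors Notch1 (1.87) and Notch3 (1.44), which belong to this list, and Ccnd3 changed by -1.53. Of the other Deltex genes and the Dtx3l partner, Dtx2 changed by -0.86 and Dtx4 by 0.72, and Dtx3 and Parp9 were not called.

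The second comparison asks whether tumors from a Notch3 knockout thymus show the same genes apart from normal thymus. Heyl, Dtx1 and Hes1 were higher, 3 of the 7 genes that passed the filter, against 37.5% of all genes (21.2% higher and 16.3% lower), and the median difference was 0.29, against 0.08 over all genes. The same 6 thymus libraries serve as controls in both comparisons. Heyl passed the filter only through the T-ALL libraries, so its place among the 3 is not independent of the filter. It was 3.59, 2.51 and 3.43 in Notch3 KO T-ALL 1, 2 and 3, with no overlap with thymus and a difference of 2.97 (SE 0.70, limma adjusted p = 0.00223). Dtx1 was 5.65, 5.89 and 6.24, also above every thymus library, with a difference of 2.74 (SE 0.59, limma adjusted p = 0.000941). For both, the exact permutation test over 84 splits gave p = 0.0119, the smallest it can give. The share of all genes that separate this fully from thymus is not given here. Within set A, which holds all 3 knockout libraries and 2 of thymus, the differences were 3.06 for Heyl, no longer called (adjusted p = 0.0579), 3.56 for Dtx1 (adjusted p = 0.0157) and 2.37 for Hes1 (adjusted p = 0.0487).

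Hes1 differed between the 3 knockout tumors. Notch3 KO T-ALL 1 and 3, at 5.26 and 5.50, lay above every thymus library, but number 2, at 2.58, lay among them. The mean was 4.44 ± 1.62, a difference from thymus of 2.01 (SE 0.45, limma adjusted p = 0.00134, exact permutation p = 0.0357), and 2.95 without that library. Notch3 KO T-ALL 2 was also the lowest of its group for Notch3, Heyl and Nrarp and had no Hes5 read, yet it was the highest for Notch1 (7.20). Its T-lineage sum, 2342, was the highest of the 3, and its neutrophil marker sum was 204 against 6739 and 7586 in the other tumors. Its erythroid sum was the highest, 103240 against 31518 and 79512, as was its hemoglobin share of 15.5% against 4.05% and 9.27% of summed RPKM, and its stromal sum the lowest, 23.9 against 85.4 and 70.9. Whether its cell makeup plays a part was not tested.

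Nrarp was 1.99, 1.41 and 2.96 in the knockout tumors and differed from thymus by 0.29 (SE 0.73, limma adjusted p = 0.780). Without Notch3 KO T-ALL 3 that difference was -0.13, and it was -1.38 with the stromal score, 1.303 with the T-lineage score and 2.24 with the endothelial score (adjusted p = 0.588, 0.0614 and 0.387). Dtx3l was 4.09, 4.57 and 3.71, a difference of -0.65 that did not pass the test (limma adjusted p = 0.0622, exact permutation p = 0.0238). Hes6 and Rbpj differed by -0.34 and -0.15 (adjusted p = 0.302 and 0.565). Erythroid markers were far higher in these tumors than in thymus, and with an erythroid score as a covariate none of the genes was called, the differences being 2.03 for Heyl, 2.25 for Dtx1 and 3.30 for Hes1 (adjusted p = 0.468, 0.325 and 0.0508). That covariate left 4.03% of all genes called, against 37.5% without it. With the mural and stromal score the differences were 0.53, 2.52 and 1.71, and none was called (adjusted p = 0.839, 0.182 and 0.242), with 7.27% of all genes called. With the endothelial score the differences were larger, 4.40 for Heyl, 3.98 for Dtx1 and 2.52 for Hes1, and Dtx1 alone was called (adjusted p = 0.0760, 0.0489 and 0.123), with 1.96% of all genes called. The erythroid, stromal and endothelial sums of the knockout tumors did not overlap those of thymus, so these fits cannot well separate score from group.

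The third comparison asks whether the loss of Notch3 from the donor changed the targets within T-ALL. None of the 7 genes was called, against 0.617% of all 11677 genes, and 1, Hes1, had an unadjusted p under 0.05. Their median difference was -0.30, and -0.0027 over all genes. Hes1 differed by -0.97 (SE 0.44, limma p = 0.0420, adjusted p = 0.547), and without Notch3 KO T-ALL 2 the difference was -0.04. Nrarp differed by -1.25 (SE 0.75, adjusted p = 0.766) and Heyl by -0.72 (SE 0.72, adjusted p = 0.960), all 3 knockout values of both lying within the range of WT T-ALL. Within set A, where the knockout libraries meet 4 WT T-ALL libraries, these differences were -1.36 for Hes1, -1.05 for Nrarp and -0.05 for Heyl. Dtx1, Dtx3l, Hes6 and Rbpj differed by -0.30, -0.20, -0.10 and -0.15, each by less than 1 SE or close to it (SE 0.52, 0.26, 0.25 and 0.19). With 3 knockout tumors and an SE of 0.75, the difference in Nrarp is only loosely bounded.

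Hes5 and Hey1, which did not pass the filter, had higher means in the knockout tumors. Hey1 had 4, 8 and 14 reads there, a difference of 0.08 (exact permutation p = 0.251, unadjusted). For Hes5, tumors 1 and 3 of the knockout group had 37 and 28 reads, scaled RPKM of 1.14 and 1.02, and lay above all WT T-ALL libraries, whose highest was 0.451. Notch3 KO T-ALL 2 had 0 reads. The mean difference of 0.59 had an exact permutation p of 0.0221 over 680 splits, unadjusted and 1 of 27. Hes5 overlaps the opposite-strand gene Gm20421, and all 3 knockout libraries belong to the set with higher values of such overlapping genes; the part of this overlap was not tested, and the 4 WT T-ALL libraries of that set had 0 or 1 read.

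The last question was whether these genes followed the receptors from tumor to tumor. Across the 14 WT T-ALL libraries Nrarp, Heyl and Dtx1 correlated positively with Notch1, but none passed the adjusted test. Of all 11475 genes, 3 (0.0261%) varied with Notch1 and 0 (0%) with Notch3, with 1706 and 1626 at an unadjusted limma p under 0.05. Among the 7 members 3 were under that value for each receptor, the same 3 genes. In all, 40 relations between these genes and the receptors or each other were computed.

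Nrarp had a slope of 2.10 per unit of Notch1 (SE 0.41, limma adjusted p = 0.0790), with r = 0.801 (permutation p = 0.00046) and rho = 0.864 (permutation p = 9e-05). Without tumors 36 and 110, the farthest from the median of Notch1, r was 0.693, and within the 10 tumors of set B it was 0.823. Tumor 110 had the lowest Notch1 (5.75) and the lowest Nrarp (1.06), and tumor 36 the highest of both (7.44 and 6.39). Without tumor 120 the adjusted p was 0.0419, while the share of all genes called on Notch1 rose from 0.0261% to 2.11%.

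Heyl had a slope of 1.78 on Notch1 (SE 0.48, adjusted p = 0.1003), with r = 0.694 (permutation p = 0.00487) and rho = 0.688 (permutation p = 0.00802). Dtx1 had a slope of 1.28 (SE 0.35, adjusted p = 0.101), with r = 0.686 (permutation p = 0.00591) and rho = 0.692 (permutation p = 0.00774). Without tumors 36 and 110, r was 0.555 for Heyl and 0.531 for Dtx1, and within set B 0.772 and 0.679. Set A holds 4 WT T-ALL libraries, and no correlation was computed over so few.

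Hes1 lay above thymus in every tumor, and its slope on Notch1 was -0.02 (SE 0.27, adjusted p = 0.988), with r = -0.017 (permutation p = 0.954) and rho = 0.077 (permutation p = 0.797). Tumor 3, with the highest Hes1 (6.46), had a Notch1 level of 6.53, below the median of 6.80. Hes6, Dtx3l and Rbpj had r of 0.093, 0.154 and 0.168 (permutation p = 0.752, 0.599 and 0.563), and Hes5 and Hey1, at a few reads each, -0.352 and -0.439 (permutation p = 0.225 and 0.116).

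**Figure D3:**
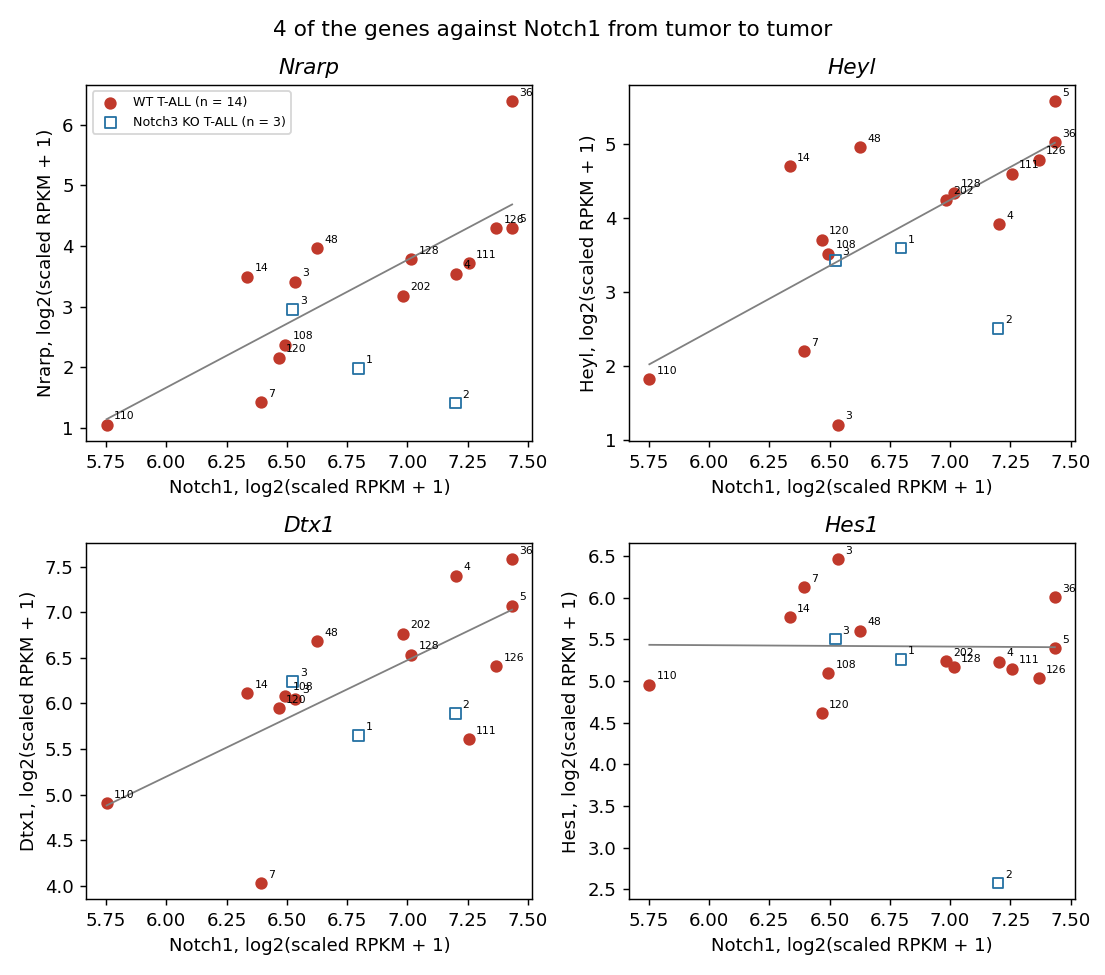
Each panel plots 1 gene (vertical axis) against Notch1 (horizontal axis), both as log2(scaled RPKM + 1), for 14 WT T-ALL libraries (filled circles, with their least-squares line) and 3 Notch3 KO T-ALL libraries (open squares, not in the line), numbered as in the labels; the axes do not start at 0. The lines of Nrarp, Heyl and Dtx1 have slopes of 2.10, 1.78 and 1.28 and that of Hes1 -0.02, none of them called, and Notch3 KO T-ALL 2 lies at a high Notch1 of 7.20 with low Nrarp, Heyl and Hes1.

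Against Notch3 the same genes gave smaller slopes, 1.35 for Nrarp (SE 0.33, adjusted p = 0.108), 1.24 for Heyl (SE 0.35, adjusted p = 0.121) and 0.84 for Dtx1 (SE 0.26, adjusted p = 0.153). Their r was 0.726, 0.682 and 0.640 (permutation p = 0.00334, 0.0064 and 0.0131) and their rho 0.613, 0.530 and 0.565 (permutation p = 0.0218, 0.0537 and 0.0376). Without tumors 110 and 111, the farthest from the median of Notch3, r was 0.671, 0.580 and 0.769. The receptors themselves moved together, with r = 0.909 (permutation p = 2e-05) and rho = 0.754 (permutation p = 0.00284). Notch3, itself a known Notch1 target, was 1 of the 3 genes called on Notch1 (slope 1.28, SE 0.18, limma adjusted p = 0.0107). With both receptors in one fit the slopes on Notch3 were -0.03 for Nrarp, 0.54 for Heyl and 0.13 for Dtx1, and those on Notch1 2.14, 1.09 and 1.11, none of them called.

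The T-lineage markers moved with the same 3 genes. The log2 of their sum had r = 0.809 with Nrarp (permutation p = 0.00029), 0.704 with Dtx1 (permutation p = 0.00444), 0.693 with Heyl (permutation p = 0.006) and 0.519 with Notch1 (permutation p = 0.0573), with rho of 0.789, 0.692, 0.763 and 0.437 (permutation p = 0.00105, 0.00798, 0.00209 and 0.121). Without the 2 tumors farthest from its median r was 0.643, 0.447, 0.467 and 0.116. The list includes Ptcra, a Notch target. With a score of Cd3e, Cd3d, Cd3g and Lck as a covariate the slopes on Notch1 were 1.64, 1.02 and 1.51 for Nrarp, Dtx1 and Heyl (adjusted p = 0.0529, 0.190 and 0.190). The log2 stromal sum had r = 0.540 with Nrarp, 0.460 with Heyl and 0.439 with Notch1 (permutation p = 0.0466, 0.0981 and 0.119) and rho of 0.719, 0.653 and 0.631 (permutation p = 0.00507, 0.0141 and 0.0186). Without the 2 tumors farthest from its median r was 0.704, 0.559 and 0.690. With that score as a covariate the slopes on Notch1 were 2.01 and 1.60. In all, 32 relations with marker sums were computed, and their p-values are unadjusted.

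Among the genes themselves, the 3 pairs of Nrarp, Heyl and Dtx1 all correlated positively across the WT T-ALL libraries. Dtx1 and Nrarp had r = 0.799 (permutation p = 0.00099) and rho = 0.728 (permutation p = 0.00404), but no pair of the 21 was called, the limma adjusted p of this pair being 0.0664 and 0.0792 in the 2 directions. Of all genes 0.157% were called on Dtx1, 0.0436% on Heyl, 0.0349% on Nrarp, 0.00871% on Hes6 and 0% on Hes1 and Rbpj, where limma gave 1190 and 1423 genes an unadjusted p under 0.05. Heyl and Nrarp had r = 0.685 (permutation p = 0.00595) and rho = 0.877 (permutation p = 4e-05), and Heyl and Dtx1 0.652 and 0.662 (permutation p = 0.0121 and 0.0120). Without the 2 tumors farthest from the median of the first gene of each pair, r was 0.640, 0.811 and 0.728.

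The relations of Hes1 depended on which tumors were included. Over all 14 tumors its r with Nrarp was 0.268, with Heyl -0.275 and with Dtx1 -0.052 (permutation p = 0.353, 0.344 and 0.859), with rho of 0.231, 0.117 and 0.231 (permutation p = 0.428, 0.693 and 0.430). Within the 10 tumors of set B r was 0.727, 0.580 and 0.632, and without tumors 3 and 7 of set A, the farthest from the median of Hes1, it was 0.729, 0.567 and 0.558. No correlation was computed over the 4 set A tumors, and a difference between the sets was not tested. In set A tumors 3, 4, 5 and 7 Hes1 was 6.46, 5.23, 5.40 and 6.12 and Heyl 1.21, 3.92, 5.58 and 2.20, so that the tumors with the highest Hes1 had the lowest Heyl of the 4, and tumor 7 is the one with the high mitochondrial share.

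**Figure D4:**
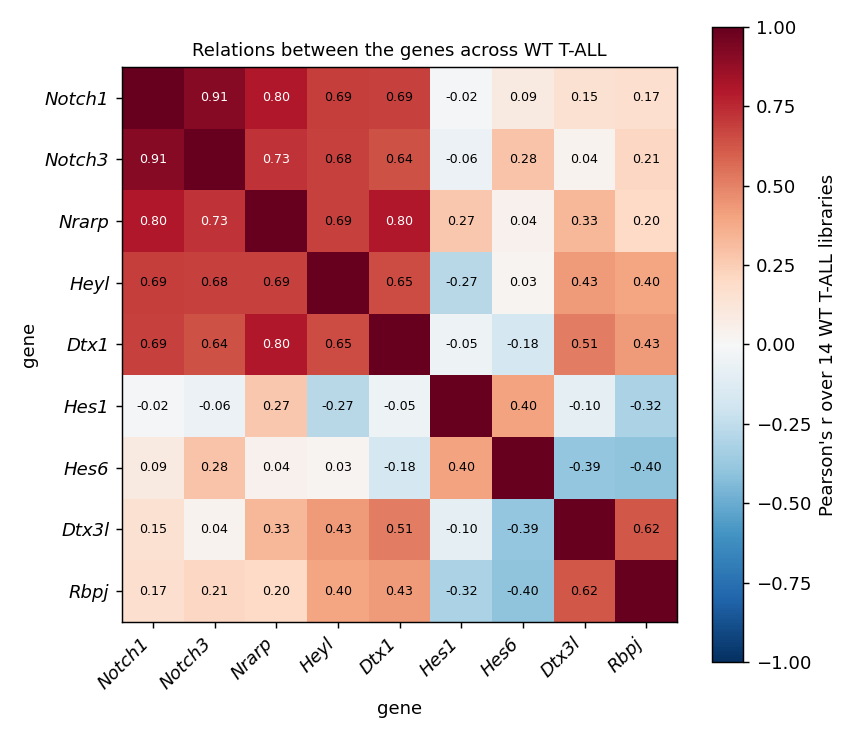
The grid gives Pearson's r of each pair (rows and columns are genes, color scale from -1 to 1) over 14 WT T-ALL libraries. The block of Notch1, Notch3, Nrarp, Heyl and Dtx1 lies between 0.640 and 0.909, while Hes1 and Hes6 lie near 0 or below with most of the others and Dtx3l pairs with Rbpj at 0.623.

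The r of Dtx3l with Notch1 was 0.154, whereas with Rbpj it was 0.623 (permutation p = 0.0170), and 0.422 within set B. The limma adjusted p of Dtx3l and Rbpj was 0.382 and 0.287 in the 2 directions. Between Dtx3l and its neighbour Parp9, on the opposite strand of the same locus, r was 0.723 (permutation p = 0.00291). These 2 genes overlap, and Rbpj, Nrarp, Notch1 and Notch3 also overlap opposite-strand genes. The part of such overlap in the relations was not tested. Among 14 genes of an interferon list that were tested, Parp14, Oas1a and Gbp2 had an unadjusted limma p under 0.05 on Dtx3l, with slopes of 1.16, 1.85 and 2.46 (adjusted p = 0.181, 0.200 and 0.212). No gene of all 11475 was called on Dtx3l (0%), with 1291 at an unadjusted limma p under 0.05, and the median slope of the 14 was 0.45. The r of Parp14, Oas1a and Gbp2 was 0.811, 0.770 and 0.742 (permutation p = 0.00044, 0.0014 and 0.00335), their rho 0.732, 0.578 and 0.596 (permutation p = 0.00421, 0.0341 and 0.0280), and without tumors 5 and 48 r was 0.678, 0.506 and 0.475. These genes were picked by their slopes over the same libraries, so the permutation p-values restate that choice. Bst2, Usp18 and Stat2 of the list had negative slopes, -0.30, -0.24 and -0.08. Of the same list 8 of 16 genes were lower and 1 higher in WT T-ALL than in thymus, against 22.3% and 29.3% of all genes, the 2 largest falls being Ifit1 (-2.72) and Ifit3 (-2.47), and Rsad2 the one that rose (1.95).

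The genes with the pattern most like each member over the 14 WT T-ALL libraries, by Pearson's r over 8582 genes, are given as a description. For Dtx3l these were Ifit1bl1, Herc6 and Trim21 (0.885, 0.885 and 0.873), for Nrarp Zscan21, Wdr25 and Fam216a (0.907, 0.867 and 0.857), and for Heyl Septin1, Specc1l and Xrn1 (0.917, 0.884 and 0.871). For Dtx1 they were Spsb4, Mlh3 and Plcl1 (0.890, 0.883 and 0.882), and for Hes1 Mrfap1, Fam133b and Gpatch4 (0.889, 0.850 and 0.839). For Hes6 they were Fbln2, Grasp and Btd (0.895, 0.889 and 0.881), and for Rbpj Dennd4c, Ncoa6 and Gabpa (0.869, 0.861 and 0.851). No member was among the 3 nearest of another.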

How the data were processed

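Total RNA of 23 samples was made into stranded mRNA libraries and sequenced, and by the study's methods the authors mapped reads with OSA, an aligner run in ArrayStudio, to mm10 transcripts (versions and strand setting not given in the sources used here). The deposited values are log2(RPKM + 1) made by the authors, with RPKM scaled to a 75th percentile of 10 per library, as read from the values. Total counts are not listed. Steps of low values gave whole reads for Hes5 and Hey1 (all libraries) and Heyl (thymus), and 1 read is worth 0.971 to 5.70 times its value in WT T-ALL 36, the range of relative depth. The 27 symbols changed to dates were restored by gene identifier.

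Genes with 3 or more fitted libraries at a scaled RPKM of 1 or above were kept, and limma 3.58.1 (R 4.3.3, lmFit, eBayes with trend and robust) was fitted, with Benjamini-Hochberg adjustment over all genes kept and calls under 0.05. Both comparisons with thymus used all 3 groups, and Notch3 KO against WT T-ALL used the T-ALL groups. Slopes on a gene used WT T-ALL alone. Single genes were tested by two-sided exact permutation, and correlations by 100000 permutations (smallest p 1e-05). Scripts were tested on simulated data. Positions came from GENCODE M21 and promoters from RefSeq, both on GRCm38.

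All 9 genes are named. From 6 context lists (other Hes and Hey genes, Deltex and Parp9, coactivators, corepressors, T-lineage Notch targets, interferon-stimulated genes) up to 4 called genes with the largest change were named per comparison. A gene of the interferon list is not reported here. Lists of 9 cell types gave marker sums. The members and lists were chosen with earlier results of these data known. Library sets, the T-lineage score and the mural and stromal score were added after seeing the data.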

Additional observations from a re-analysis of the deposited data

How the results depend on the processing

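WT T-ALL against thymus called 5 genes, and 2 with an erythroid score, 2 with a mural and stromal score and 2 within library set A, settings that took the share called of all genes from 51.6% to 13.0%, 13.1% and 15.2%. Notch3 KO T-ALL against thymus called 3, and 0 with the erythroid score, 1 with the endothelial score and 0 with the stromal score (limma, with 1, 3 and 1 at an unadjusted p under 0.05), and 2 within set A, without Heyl (3.06, adjusted p = 0.0579). The share of all genes went from 37.5% to 4.03%, 1.96%, 7.27% and 25.1%. For Notch1, 0 genes were called, and 1 (Nrarp) over all 17 T-ALL samples with group as a term, where the share of all genes went from 0.0261% to 1.98%. Of the pairs 0 were called, and 1 (Dtx1 with Nrarp) with an offset of 0.1 and with the stromal score. Leaving out 1 library at a time gave 4 to 5, 3 to 4 and 0 to 0 called genes in the comparisons, 0 to 1 for Notch1, 0 to 0 for Notch3 and 0 to 2 pairs. The single call for Notch1 was Nrarp without WT T-ALL 120, where 2.11% of all genes were called. Pairs were called without WT T-ALL 3 (2, both with Heyl) and without 4, 111 or 120 (1 each, Dtx1 with Nrarp). Hes1 and Dtx1 were called in WT T-ALL under every alternative. The cause of these differences was not tested.

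Values that changed sign were mostly close to 0, and none of them was called under the alternative. With the erythroid score Hes6 was 0.18, 0.29 and 0.060 in the 3 comparisons and Rbpj in WT T-ALL against thymus -0.078. With the endothelial score Dtx3l was 0.22, 0.52 and 0.34, Rbpj 0.47 and 0.12 in the comparisons of Notch3 KO T-ALL, and Dtx1 0.31 against WT T-ALL. With the stromal score Rbpj was -0.042 in WT T-ALL and Nrarp -1.38 in Notch3 KO T-ALL against thymus. Within set B Rbpj differed by -0.014, and slopes on Notch1 were 0.22 for Hes1, -0.12 for Dtx3l and -0.087 for Rbpj, and on Notch3 0.14, -0.12 and -0.011. With both receptors in one fit the slopes on Notch1 were 0.22 for Hes1, -0.785 for Hes6 and -0.064 for Rbpj, and on Notch3 -0.35 for Dtx3l and -0.026 for Nrarp. Over 17 T-ALL samples Hes1 was 0.19 and Dtx3l -0.046 on Notch3. Dtx3l was -0.0026 on Notch3 after quantile normalization and -0.045 with the T-lineage score. Leaving out 1 library, Rbpj ran from -0.027 to 0.056 in WT T-ALL against thymus and Nrarp from -0.13 to 0.64 in Notch3 KO T-ALL against thymus. Against WT T-ALL, Hes6 ran from -0.20 to 0.023 and Dtx3l from -0.42 to 0.0067. Slopes ran from -0.27 to 0.081 (Hes1) and -0.14 to 0.21 (Hes6) on Notch1, and from -0.26 to 0.048 (Hes1) and -0.041 to 0.090 (Dtx3l) on Notch3.

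The replicate numbers of the labels name samples and do not pair them: deviations of same-numbered samples of different groups correlated at -0.235 to 0.151. With the shared numbers as a block, 4 genes were called in WT T-ALL (Dtx3l -0.24, adjusted p = 0.637) and 3 in Notch3 KO T-ALL against thymus, where Dtx3l (-0.80, adjusted p = 0.0339) took the place of Hes1 (1.96, adjusted p = 0.0592), while over all genes tested the calls in WT T-ALL were 1806, against 6150 without the block. The T-ALL groups share 1 number, so no block was fitted there. Quantile normalization shifted the median of all genes against thymus from 0.078 to -0.012 (WT T-ALL) and from 0.077 to -0.048 (Notch3 KO T-ALL). Depth limits Hes5 and Hey1, at most 37 reads in any library.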

Other observations

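In Notch3 KO T-ALL against thymus, the other genes of the pathway are given as counts, against 21.2% higher and 16.3% lower among all genes, and nothing particular to a list is read from them. Of 8 coactivators 1 was higher, Kat2a, a histone acetyltransferase (0.96, SE 0.26, limma adjusted p = 0.00582), and 2 were lower, Maml2 (-1.77, SE 0.29) and Maml1 (-0.94, SE 0.18). Of 16 corepressors 5 were lower and 0 higher, the largest changes being L3mbtl3 (-1.44), a Rbpj-bound chromatin reader, and the Groucho gene Tle4 (-1.21). Of 11 other T-lineage Notch targets 2 were higher, Myc (2.07) and Notch1 (1.91), and 3 lower, among them Ccnd3 (-1.70) and Bcl11b (-1.54). Of 16 interferon-stimulated genes 1 was higher, Rsad2 (4.05), and 5 were lower, among them Ifit1 (-2.33) and Ifit3 (-2.20). Of 4 Deltex genes and partner 1 was lower, Dtx2 (-0.79). Against WT T-ALL no gene of these lists was called by limma, where 1 corepressor, 2 T-lineage targets and 3 interferon-stimulated genes had an unadjusted p under 0.05.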
